A study of Mus musculus with 2 samples.

Results

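Heat shock proteins and DnaJ co-chaperones fold, hold and disassemble other proteins, and 73 of the 24646 gene symbols on the array belonged to them. They were chosen by name, as symbols that begin with Hsp and a digit or one of the letters a, b, d, e or h, or with Dnaja, Dnajb or Dnajc, leaving out Hspbap1. RNA was measured on Affymetrix arrays in 2 samples of sorted mouse mammary stromal cells, 1 control sample (Gli2WT) and 1 sample with stromal Gli2 ablation (Gli2∆S), from littermates 10 weeks old. In both samples the sorted cells were marked green by the Rosa26mTmG reporter after recombination by Fsp1Cre, a Cre recombinase under the Fsp1 (S100a4) promoter, so the cells measured are those with a history of Fsp1 activity and not all stroma. Neither the form of the Gli2 allele nor the number of mice behind a sample is stated in the labels. With 1 sample per group there is no replicate error and no test across samples, so every difference below describes these 2 samples only.

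HSP70 proteins bind unfolded stretches of other proteins in a cycle driven by ATP. J proteins, named after bacterial DnaJ, bring clients to HSP70 and start ATP hydrolysis, and exchange factors such as the HSP110 protein Hsph1 release the client. In the cytosol, heat shock factor 1 raises the inducible members during heat and other protein damage, whereas Hspa8 and Hsp90ab1 serve cells at rest. Separate sets work in the endoplasmic reticulum (ER), where secretory cells such as fibroblasts fold collagen, and in mitochondria, and small heat shock proteins hold damaged proteins without ATP. In tissue taken apart for sorting, heat shock genes are known to be induced together with immediate early genes.

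Values are the log2 signals that the authors deposited for each transcript cluster, a set of probes on the array that stands for 1 transcript locus. A difference is ablated minus control, on the log2 scale. For symbols on more than 1 row, the row brightest on average stands for the gene. The signal filter asked for 6.445 or more in the brighter sample, a cutoff equal to the median over symbols of that brighter signal. Of the 73 members, 57 passed, and 2 of these, Dnajc17 and Dnajc24, passed through the control sample alone. Over the 12323 symbols that passed, the median difference was 0.02, the spread around it (scaled median absolute deviation) was 0.21, and the middle 95% ran from -0.83 to 0.48. Split by mean signal into 20 bins, genes in the dimmest bin had a spread of 0.46 and those in the brightest one of 0.13. The median difference was -0.11 in the dimmest bin and 0.05 in the brightest, so bright genes leaned higher.

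The labels were looked at through Gli2 and marker genes. In the deposited comparison table Gli2 had a signal of 5.94 in the control and 5.32 in the ablated sample (difference -0.62), below the filter in both. The series matrix, which holds the same arrays, gave 5.94 and 5.72 for it (difference -0.22). Gli2 and Bmp7 were the only 2 of 41345 rows in which these tables differed by more than 0.01, and 0 member rows did. Of 17 fibroblast markers, all passed the filter and 16 were lower in the ablated sample (median -1.08), while 17 of 18 T and NK cell markers that passed were higher (median 0.235). Pdgfra, a receptor that defines fibroblasts, had 9.69 and 7.71, and the T cell gene Cd3e had 11.09 and 11.43, so the sorted cells carried T cell as well as fibroblast signal in both samples. Some genes of other cell types were bright too, such as Cd79a of B cells (11.51 and 11.53), Cpa3 of mast cells (11.1 and 10.4) and Krt8 of epithelium (10.06 and 10.18). These are picked examples, since 7 of 12 epithelial markers, Krt5 and Krt14 among them, and 2 of 8 mast cell markers were below the filter. In a bulk sample, fewer cells of a type and less RNA per cell cannot be told apart.

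Members classed as heat-inducible chaperones of the cytosol were mostly higher in the ablated sample, those of the ER were near 0, and mitochondrial members were divided. The inducible class, chosen with earlier results of these data known, leaves out the small heat shock protein Hspb8 (-0.85). Outside the members, 15 heat shock factors and other heat-induced genes had 10 higher and 5 lower (mean -0.02). All 8 inducible members passed the filter and all 8 were higher on the rows used, with a median of 0.30. With rows of a symbol averaged, 7 of 8 were, since Hspb1 was then at -0.04. Of the 12266 other symbols passing the filter, 52.9% were higher and their median was 0.02. These other symbols were not matched for signal, and the median of the brightest bin was 0.05. Among all 57 members passing the filter, 35 (61.4%) were higher, 21 were lower and 1 was equal, with a median of 0.06. At least 1.5-fold higher were 2 members (3.51%), Hsph1 and Dnajb6, against 1.24% of the other symbols. With rows of a symbol averaged, or with the row of most public transcript IDs, 1 member was, since Dnajb6 was then at 0.42 or 0.07. The Dnajb6 row used was the dimmer one in the control, so it was chosen through its ablated signal. At least 1.5-fold lower was 1 member (1.75%), Hspb8, against 4.68% of the other symbols. At a lower fold, a ratio of at least 5 to 4 (5/4-fold), 7 members (12.3%) were higher against 6.91% of the other symbols, and 1 (1.75%) was lower against 10.3%. Hspa1b (0.32) fell just short of 5/4-fold on the rounded signals and reached it in the series matrix (0.3267), so the count of 7 hangs on rounding. No member was 2-fold apart on the row used.

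**Figure D1:**
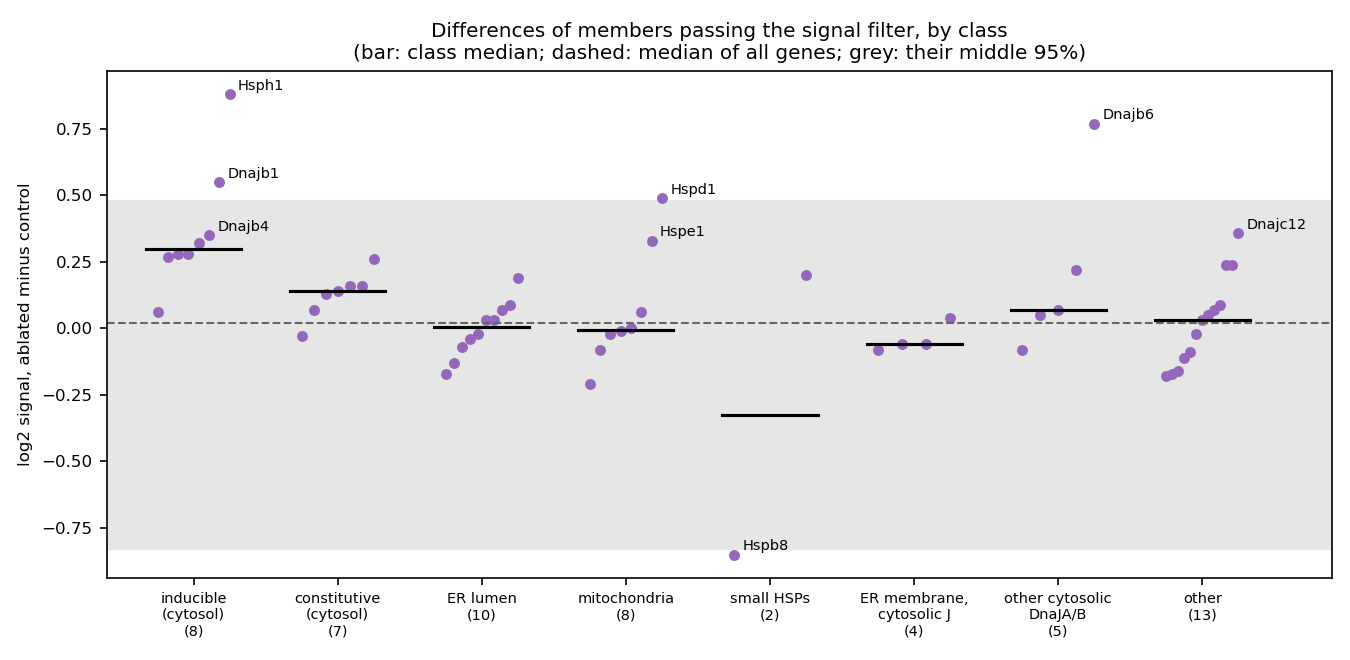
Each point is 1 member that passed the signal filter, placed by class on the x axis (number of members in brackets) and by its difference in log2 signal, ablated minus control, on the y axis. Bars mark class medians, the dashed line the median of all genes passing the filter (0.02) and the grey band their middle 95% (-0.83 to 0.48). All 8 inducible members lie above 0 on the rows used (Hspb1 lies at -0.04 with its rows averaged), Hsph1, Dnajb1, Hspd1 and Dnajb6 lie above the band, and Hspb8 lies below it.

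Hsph1, the HSP110 exchange factor of the cytosol, had a signal of 9.22 in the control and 10.10 after ablation. It was 1.84-fold higher after ablation (difference 0.88), and of the 616 genes in its signal bin 0.487% were as high. Dnajb1, the class B J protein that works with inducible HSP70, had 10.20 and 10.75, a difference of 0.55 (1.46-fold). As high a difference was found in 1.94% of the 617 genes of its bin.

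The inducible HSP70 genes Hspa1a and Hspa1b encode nearly the same protein. Hspa1a had 12.89 in the control and 13.17 in the ablated sample (difference 0.28), and Hspa1b had 12.75 and 13.07 (difference 0.32). Signals of these copies may share RNA, since a second cluster of Hspa1a, which names both genes, had 8.99 and 9.13 (difference 0.14). In the brightest bin, which holds both genes, 9.72% of genes were as high as Hspa1a and 6.16% as high as Hspa1b.

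Hsp90aa1, the inducible cytosolic HSP90, had 10.23 and 10.51 (difference 0.28). Dnaja1, a class A J protein, had 9.33 and 9.60 (0.27), and Dnajb4, a class B J protein close to Dnajb1, had 6.73 and 7.08 (0.35). These 3 genes were higher by 1.21-fold to 1.27-fold, and as high a difference was found in 5.36% to 9.72% of the genes in their bins. The small heat shock protein Hspb1 (HSP25 of the mouse) stood apart from the other inducible members, at 8.41 and 8.47 (difference 0.06), and averaging its 2 rows turned the sign (-0.04). The other 7 inducible members kept a positive difference under each scaling and row choice tried.

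**Figure D2:**
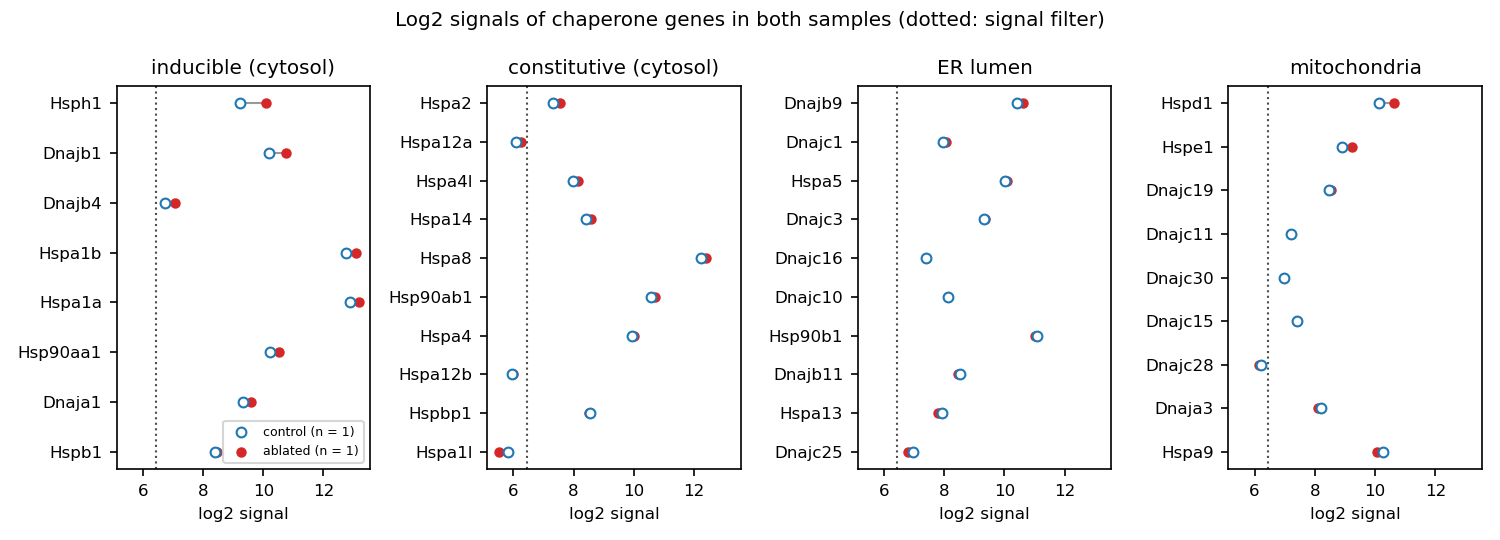
Log2 signals (x axis) of the inducible, constitutive, ER and mitochondrial members, 1 gene per line ordered by its difference, in the control sample (open circles) and the ablated sample (filled circles), with 1 sample each. The dotted line marks the signal filter of 6.445. On the rows used, the filled circle lies to the right of the open circle for every inducible member (for Hspb1, the mean of its rows turns to -0.04), and the widest gap is that of Hsph1, from 9.22 to 10.10.

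Promoter windows of RefSeq (GRCm38.p6, 250 bases before to 50 bases after a start) were given for 59 of the members and 27025 symbols in all. They were searched for the heat shock element, the binding motif of heat shock factors, as GAANNTTC or TTCNNGAA. Both forms read the same on either strand and can overlap. Such a motif was found for 6 of 7 inducible members with a window (85.7%), 16 of 59 members (27.1%) and 17.0% of all symbols. Of the small heat shock proteins besides Hspb1, 3 of 5 held it (60.0%), namely Hspb8 (-0.85), Hspb6 (0.20) and, below the filter, Hspb3 (-0.24). The motif was also found for 2 of 6 mitochondrial (33.3%) and 1 of 9 ER members (11.1%) with a window. With 3 alternating GAA and TTC triplets, each 2 bases apart, it was found for 4 members (6.78%), Hsph1, Dnajb6, Hspd1 and Hspe1, and for 0.662% of all symbols. On the rows used, these 4 were among the 7 members at least 5/4-fold higher. They are not 4 separate cases, since Hspd1 and Hspe1 share the same site. Dnajb6 was at 0.07 on its row with the most public IDs, and the row used was chosen through its ablated signal. The values and the motifs are set side by side only as a description. The sites of the inducible members and of these 4 genes are shown, with the matching triplets in capitals.
Hsph1, chr5:149636280-149636309, minus strand: tgctgcagaTTCtgGAAagTTCtcctcagt
Dnajb6, chr5:29735843-29735872, plus strand: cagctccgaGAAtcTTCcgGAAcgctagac
Hspd1, chr1:55088053-55088082, minus strand: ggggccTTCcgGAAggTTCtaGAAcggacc
Hspe1, chr1:55088053-55088082, plus strand: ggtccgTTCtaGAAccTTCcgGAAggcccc
Hspa1a, chr17:34972242-34972271, minus strand: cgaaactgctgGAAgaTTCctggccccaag
Hspa1b, chr17:34959324-34959353, minus strand: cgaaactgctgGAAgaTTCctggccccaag
Dnaja1, chr4:40722333-40722362, plus strand: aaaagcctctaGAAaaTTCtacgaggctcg
Dnajb4, chr3:152193841-152193870, minus strand: ttcgttcgctgTTCtaGAAagtacagagac
Hspb1, chr5:135887791-135887820, plus strand: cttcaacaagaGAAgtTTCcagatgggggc

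Of 2 sites in the Hsph1 window the one nearer the start is shown, which began 15 bases after a transcription start, and that of Dnajb6 46 bases before one. Hspd1 and Hspe1 are read in opposite directions from neighbouring starts, and the same 18 bases with 4 triplets were the site of both. The Hspa1a and Hspa1b sites lay 104 bases before each start, and the sequences matched at 296 of 300 positions of the windows. Their upstream stretch from 160 to 51 bases before the start is printed once, from Hspa1a (chr17:34972207-34972316, minus strand), because all 110 bases were the same in Hspa1b.
Hspa1a: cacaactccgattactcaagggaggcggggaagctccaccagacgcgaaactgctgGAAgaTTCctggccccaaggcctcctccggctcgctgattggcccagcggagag
The search found no such letters in the window of Dnajb1. Hsp90aa1 had no window, so it was not searched. Hspb1 had 2 sites, of which the one farther upstream is shown, and its difference was 0.06, so members with a site did not have like differences. The Hspb8 window held a site as well, from 2 bases after the start, and Hspb8 was the member with the lowest difference.

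Constitutive members of the cytosol differed by less. Of 10, 7 passed the filter, 6 of them higher, and 0 were 5/4-fold apart. Their median was 0.14, against 0.02 over all genes, which were not matched for signal. Hspa8, the constitutive HSP70 (Hsc70), had 12.24 in the control and 12.38 in the ablated sample (difference 0.14). The constitutive HSP90, Hsp90ab1, had 10.57 and 10.70 (0.13). Both differences were close to the spread of 0.13 in the brightest bin.

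The HSP110 proteins Hspa4, with 9.95 and 10.02 (difference 0.07), and Hspa4l, with 7.97 and 8.13 (0.16), are exchange factors of the same kind as Hsph1. Both were closer to 0 than Hsph1 (0.88). Hspa14, an HSP70 protein bound to ribosomes, had 8.40 and 8.56 (0.16), and Hspa2, known for its role in sperm formation, had 7.30 and 7.56 (0.26). The exchange factor Hspbp1 was the only member of the class that passed and was lower, at 8.54 and 8.51 (-0.03). Below the filter were Hspa12a (6.07 and 6.26), Hspa12b (5.94 and 5.98) and Hspa1l (5.83 and 5.51), at levels where signal and background were not separated. No constitutive member with a promoter window (8 of 10) held the heat shock motif. Hspa8 and Hsp90ab1 had no window, so they were not searched.

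Chaperones of the ER lumen had differences on both sides of 0. All 10 passed the filter, 5 higher and 5 lower, with a median of 0.005 that turned negative when both samples were quantile-normalized (-0.035), fitted by loess (-0.03), or centred on the median of all genes (-0.015). Hspa5 (BiP), the HSP70 of the ER and a common sign of the unfolded protein response, had 10.01 and 10.08 (0.07). The ER form of HSP90, Hsp90b1 (Grp94), had 11.07 and 11.03 (-0.04).

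J proteins of the ER followed with small differences. Dnajb9, an induced J protein that holds the stress sensor Ire1 in check, had the highest of the class, with 10.43 and 10.62 (0.19). Dnajb11, which binds secreted proteins before BiP does, had 8.52 and 8.45 (-0.07), and Dnajc3, an inhibitor of the kinase Perk, had 9.32 and 9.35 (0.03). The disulfide reductase Dnajc10 had 8.13 and 8.11 (-0.02), and Dnajc1, a membrane protein at the ribosome, had 7.97 and 8.06 (0.09). Dnajc16 had 7.38 and 7.41 (0.03). The lowest values were those of Dnajc25 (6.97 and 6.80, difference -0.17) and the HSP70 protein Hspa13 (7.92 and 7.79, difference -0.13).

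The ER stress element, which unfolded protein response factors bind, was searched as CCAAT, then 9 bases of any kind, then CCACG, on both strands. It was found for 3 of 9 ER members with a window (33.3%), 3 of all 59 members (5.08%) and 0.137% of all symbols. The sites are shown with the CCAAT and CCACG ends in capitals, and the 3 genes had differences from -0.04 to 0.07.
Hspa5, chr2:34772019-34772048, plus strand: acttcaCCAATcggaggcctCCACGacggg
Hsp90b1, chr10:86705633-86705662, minus strand: acaagcCCAATcgcaaggagCCACGcttcg
Dnajc3, chr14:118937821-118937850, plus strand: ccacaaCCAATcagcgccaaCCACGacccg
Hsp90b1 had 2 such sites, and the one farther upstream is shown.

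Mitochondrial members were divided between the chaperonin and the rest. Hspd1 (HSP60), which forms the folding chamber of the matrix, had 10.13 in the control and 10.62 in the ablated sample (difference 0.49, 1.40-fold). Its lid, Hspe1 (HSP10), had 8.89 and 9.22 (0.33, 1.26-fold). As high a difference was found in 2.43% of the genes in the bin of Hspd1 and 6.17% of those in the bin of Hspe1.

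The other mitochondrial members were near or below 0. Hspa9 (mortalin), the HSP70 that pulls proteins into the matrix, was the lowest, with 10.28 and 10.07 (difference -0.21). As low a difference was found in 9.42% of the genes in its bin. The J protein partner of Hspa9, Dnaja3, had 8.19 and 8.11 (-0.08). The import motor subunits Dnajc19 and Dnajc15 had differences of 0.06 (8.47 and 8.53) and -0.02 (7.42 and 7.40). Dnajc11, a protein of the cristae organizing complex, was at 7.21 in both samples, Dnajc30 had 6.98 and 6.97 (-0.01), and Dnajc28 lay below the filter (6.20 and 6.15). The class median was -0.005, with 3 of 8 members higher, 4 lower and 1 equal, while the mean was 0.07, and a 75th percentile filter gave a median of 0.06.

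Of the 6 members that are small heat shock proteins other than Hspb1, Hspb8 and Hspb6 passed the filter. Hspb8, which works with the co-chaperone Bag3 in clearing damaged proteins, had 7.81 in the control and 6.96 in the ablated sample. It was 1.80-fold lower (difference -0.85), as low as 1.62% of the 616 genes in its bin. Hspb6, known in muscle, had 7.44 and 7.64 (0.20). Hspb2, Hspb3, Hspb7 and Hspb9 lay below the filter, with differences from -0.27 (Hspb2) to 0.02 (Hspb9).

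Other J proteins of the cytosol that passed the filter ranged from -0.08 to 0.77 on the rows used. Dnajb6, which keeps aggregation-prone proteins soluble, had 7.82 and 8.59 (difference 0.77) on the row chosen by mean signal, whose description also names a predicted gene and which lists 2 public transcript IDs. The other row of Dnajb6 lists 15 such IDs and had 7.88 and 7.95 (difference 0.07), so the 1.5-fold call rests on the row that names a second gene. That row was the dimmer one in the control, so it was chosen through its ablated signal and its difference is favoured by the choice. Dnaja4, a class A J protein, had 7.61 and 7.83 (0.22), and Dnaja2, the lowest of this class passing the filter, had 10.17 and 10.09 (-0.08). Dnajb2 (0.07) and Dnajb5 (0.05) lay between, and Dnajb3, Dnajb7, Dnajb8 and Dnajb13 stayed below the filter.

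The 4 J proteins anchored in the ER membrane with the J domain facing the cytosol lay between -0.08 (Dnajb12, 7.72 and 7.64) and 0.04 (Dnajc18, 6.61 and 6.65). The remaining 17 members, mostly class C J proteins with separate tasks, had 13 that passed, 7 higher and 6 lower, with a median of 0.03. Highest was Dnajc12, a J protein for aromatic amino acid hydroxylases, at 6.61 and 6.97 (0.36). Lowest was Dnajc13, a J protein of endosomes, at 9.14 and 8.96 (-0.18). The histone chaperone Dnajc9 had 8.43 and 8.67 (0.24). Neither the auxilin Dnajc6 (-0.11), which uncoats clathrin vesicles, nor the spliceosome protein Dnajc8 (0.05) nor the ribosome-bound Dnajc2 (0.09) was 5/4-fold apart. Of the 16 members below the filter, 4 were higher, 11 lower and 1 equal, from -0.49 (Dnajb13) to 0.31 (Dnajb3).

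A total of 12 members stood on more than 1 row. Hspa8 stood on 4, of which the row used lists 23 public transcript IDs. One other row of Hspa8, with 3 such IDs, had 8.14 and 9.24 (difference 1.10, past 2-fold), and the remaining rows had 0.09 each. The rows of Dnaja3, Dnajb14, Dnajc8, Hspa12a and Hspb1 lay on both sides of 0.

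**Figure D3:**
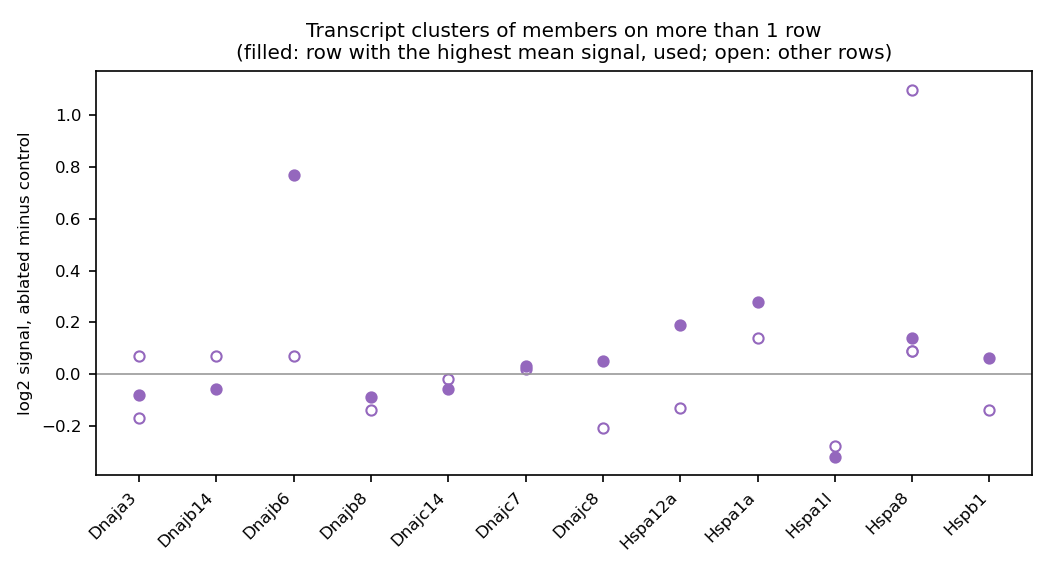
Differences in log2 signal, ablated minus control (y axis), for every transcript cluster of the 12 members on more than 1 row (x axis). Filled circles are the rows used and open circles the other rows. Dnajb6 (0.77 and 0.07) and Hspa8 (0.14 and 1.10) have rows that lie far apart, and the rows of the other members lie closer together.

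Genes of the folding machinery that are no members were described from lists. Of 15 heat shock factors and other heat-induced genes, all passed the filter, 10 were higher and 5 lower, with a median of 0.10 and a mean of -0.02. Cacybp, a partner of calcyclin and HSP90, was 1.51-fold higher (9.71 and 10.30, difference 0.59). Serpinh1 (HSP47), the collagen chaperone of the ER, was 2.20-fold lower (8.16 and 7.02, difference -1.14), and the small heat shock protein Cryab was 2.0-fold lower (7.77 and 6.77, -1.0). Bag3, the partner of Hspb8, had 8.49 and 8.23 (-0.26), and Hsf1, the heat shock factor itself, had 8.69 and 8.75 (0.06).

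Among 17 other cofactors of HSP70 and HSP90 that passed, 9 were higher and 8 lower (median 0.08). Fkbp5, an HSP90 co-chaperone induced by glucocorticoids, was farthest from 0, 1.52-fold higher (6.82 and 7.42, difference 0.60), ahead of the myosin chaperone Unc45a (0.30) and the cyclophilin Ppid (0.23). The TRiC chaperonin and prefoldin had 8 of 12 genes higher (median 0.06), from Pfdn2 (-0.18) to Cct7 (0.19) and Pfdn5 (0.18). ER folding and unfolded protein response genes had 7 of 22 higher and 15 lower (median -0.13), with the stress kinase Eif2ak3 (0.63), the asparagine synthetase Asns (-0.61) and the disulfide isomerase Pdia4 (-0.40) farthest from 0 and Hyou1, the HSP110 of the ER, at -0.02. Mitochondrial import, exchange and protease genes had 3 of 10 higher (median -0.025). Grpel1, the exchange factor of Hspa9, was the lowest at -0.32, Lonp1 was at 0.13, Pam16 at -0.12 and Trap1, the mitochondrial HSP90, at 0.08.

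Genes that mark cell handling and cell types also differed between the samples, in some lists and not in others. Of 26 immediate early genes, all passing the filter, 17 (65.4%) were higher and 8 lower (median 0.105). Of all symbols that are no members, 52.9% were higher, a share not matched for signal. Farthest from 0 among the immediate early genes were Cyr61 (-1.09), Ppp1r15a (0.48) and Ier3 (-0.48). Summed on the linear scale, the signals of the T and NK cell list were 1.21-fold higher in the ablated sample, and 1 of its 19 genes found was below the filter. The fibroblast list was 1.58-fold lower, with 0 genes below the filter. In the other marker lists, counts and medians are over the genes that passed the filter. Macrophage genes had 11 of 13 lower (median -0.32), endothelial genes 11 of 11 (-0.44) and smooth muscle and pericyte genes 7 of 7 (-0.34). Adipocyte genes had 5 of 5 lower (-0.77), mast cell genes 6 of 6 (-0.44), epithelial genes 3 of 5 (-0.02) and B cell genes 2 of 10 (0.035). Below the filter were 5 of 10 adipocyte, 7 of 12 epithelial, 3 of 10 smooth muscle and pericyte, 2 of 8 mast cell and 1 of 12 endothelial genes. The part of these cell types and of cell handling in the chaperone values was not tested.

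**Figure D4:**
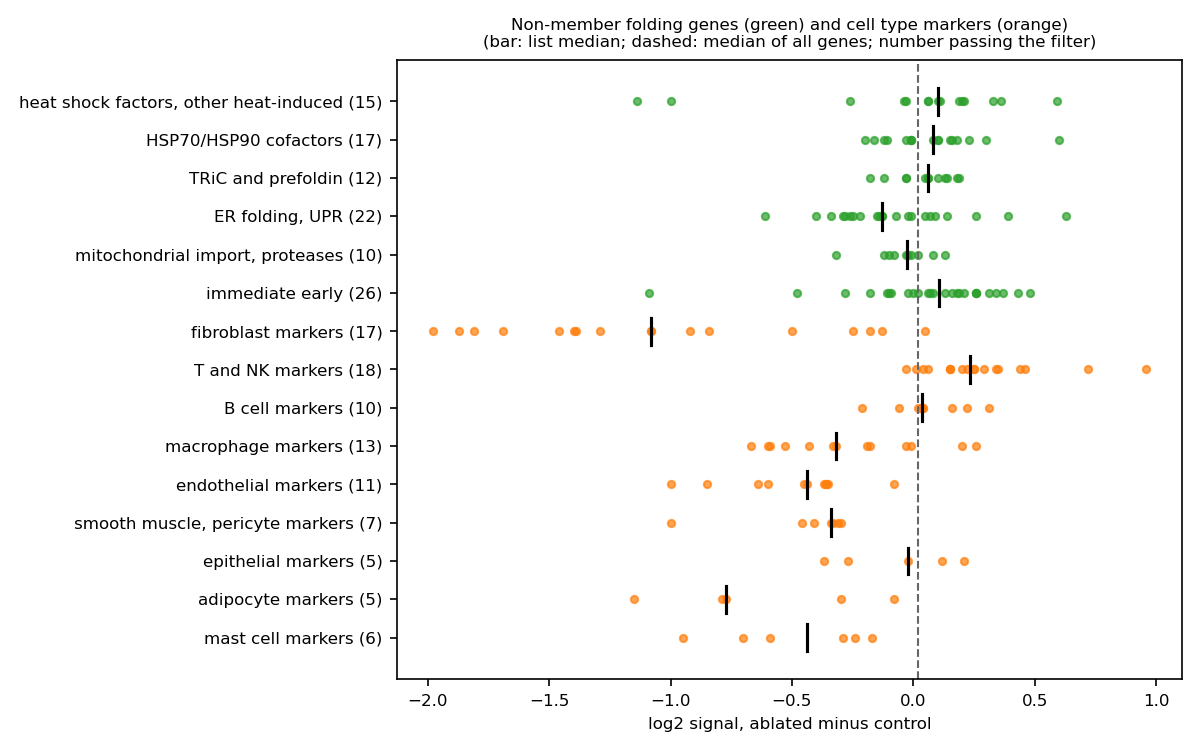
Differences in log2 signal, ablated minus control (x axis), for genes of folding and immediate early lists (green) and cell type markers (orange) that passed the signal filter, 1 list per line with the number of genes in brackets. Bars are list medians and the dashed line is the median of all genes passing the filter (0.02). Fibroblast markers are centred at -1.08 and T and NK cell markers at 0.235, and Serpinh1 and Cryab are the lowest points of the top line.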

How the data were processed

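Per the labels' protocols, RNA of the sorted cells was extracted with Trizol and a Qiagen kit, and biotinylated cRNA was prepared by a standard Affymetrix procedure. The authors deposited log2 signals (bi-weight averages, per the file headers) of 41345 transcript clusters for each sample, beside a signed linear fold of control over ablated. The submitters' processing notes list Transcriptome Analysis Console. Not given in the sources used here are the array design, how background was corrected, how signals were normalized and the genome build. Both samples had a median of 6.13, so a shift common to all genes may be hidden. The table has no detection calls, so dim signals may be background. The number of arrays limits the precision.

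Members, classes, gene lists and the rule for named genes were chosen with earlier results of these data known. Every member of the inducible, constitutive, ER and mitochondrial classes is named. Of the other classes, the rule names members at least 5/4-fold apart and the highest and lowest, and of each folding or immediate early list the 3 genes farthest from 0, with Hsf1, Bag3, Hyou1 and Trap1. Further members and marker genes were named after their values were seen. Background shares are over symbols that are no members and pass the signal filter, and they are not matched for signal. Alternatives to scaling, row, filter and fold were tried. The steps were tested on simulated data. Planned looks at protein sequences were not made. The software was Python 3.11.15 with matplotlib 3.10.9, pandas 2.3.3, numpy 2.4.6 and statsmodels 0.14.6.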

Additional observations from a re-analysis of the deposited data

How the results depend on the processing

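Signals were rescaled (by quantiles, by loess, span 0.3, or with the median difference at 0), and other settings were the mean over rows of a symbol, the deposited fold, other filters and folds, the series matrix values and, added after seeing the data, the row with the most public IDs. The 2 members at least 1.5-fold higher became 1 with rows averaged or with the row of most IDs, since Dnajb6 was then at 0.42 or 0.07, and 7 at 5/4-fold and 0 at 2-fold. The 1 member lower, Hspb8, became 0 at 2-fold, and 0 under a 75th percentile filter, which it did not pass. The median of the inducible members ran from 0.25 (loess) to 0.37 (as a mean). Of 73 members, 71 differences moved by less than the spread of 0.21 with rows averaged and 71 with the row of most IDs, and all 73 did under the other alternatives to the values. Hspa8 was at 0.355 with its rows averaged, and Dnajc8 at -0.21 with the row of most IDs. No paired analysis was possible because each group has 1 sample.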

Other observations

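Small heat shock proteins did not have like differences. Cryab, which is no member by name, was 2.0-fold lower and Hspb8 1.80-fold lower in the ablated sample, while Hspb6 was at 0.20 and Hspb1 at 0.06 on the row used, -0.14 on its other row and -0.04 with both averaged. The row of Hspb2 also names Cryab in its description and was below the signal filter, at 6.31 and 6.04.

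Hspa8 and Dnajb6 each had a row with few public transcript IDs whose difference (1.10 and 0.77) was far from that of the row with the most IDs (0.14 and 0.07). Of all rows, those of Gli2 and Bmp7 alone differed by more than 0.01 between the deposited comparison table and the series matrix, and Bmp7 had a difference of -0.65 in the first and -0.35 in the second.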
